A study of Homo sapiens with 6 samples.

Results

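Mitochondrial ribosomal protein genes were described in MDA-MB-231, a human breast cancer cell line of the basal-like kind, with and without gamma irradiation. The genes were taken by name as every protein-coding row called MRPL or MRPS with a number, which gave 78 of the 19951 protein-coding genes and of the 58735 genes in the table. Of these, 49 carry large subunit names (MRPL) and 29 carry small subunit names (MRPS). Both groups of libraries came from cells that the labels call SCR with genotype WT, which are the study's cells with a non-targeting shRNA, and every library carries it. The 3 control libraries received 0 Gy, the 3 irradiated libraries received 10 Gy from a caesium irradiator, and RNA was collected 24 h later. Nothing in the sources says whether the 3 libraries of a group came from separate cultures, so each p-value measures only the spread between these libraries. RNA was measured in bulk from polyA libraries, so a lower level in every cell and a smaller share of cells with a high level cannot be told apart.

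The mitochondrial ribosome, or mitoribosome, translates the few messenger RNAs made from mitochondrial DNA, which encode core subunits of the respiratory chain and ATP synthase. Its ribosomal RNAs come from mitochondrial DNA, while its proteins are encoded in the nucleus, made in the cytosol and imported. Many of these proteins have relatives in bacterial ribosomes and others were added in mitochondria, and some gene names no longer match the protein's place, as described for MRPS18A, MRPS30 and MRPS36.

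Levels are FPKM as deposited (fragments per kilobase of gene, relative to library depth). The gene length of each member equalled its annotated exon bases in GENCODE 29, each base counted once. Changes are differences of log2(FPKM + 1), 10 Gy minus 0 Gy, tested with limma for the 12128 genes whose mean reached 1 FPKM. A gene was called at a Benjamini-Hochberg adjusted p under 0.05 over all of these genes. Recovered reads on genes ranged from 15643641 to 21928560 in the control and from 17570365 to 28861781 in the irradiated libraries. The depth by which the deposited values were divided was 0.973 to 0.991 times these reads in the control libraries and 1.03 to 1.04 times in the irradiated ones, so a scaling factor that differs with dose is already in the values. Of the markers for this cell line, all 6 high ones (VIM, CD44, ANXA1, AXL, CAV1, S100A4) were at 78.6 FPKM or more in the control cells. Of the 6 low ones, PGR was at 0 in every library, ESR1 and CDH1 were under 1 FPKM, and EPCAM, GATA3 and ERBB2 were at 1.44, 3.05 and 7.08 FPKM.

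In the unirradiated cells the FPKM values of these genes were very unequal. Control levels ran from 0.361 FPKM for MRPS24 to 119 FPKM for MRPL14, and among the 76 tested genes the highest was 109 times the lowest. The low end of this range is uncertain, since the lowest genes share exon bases with another gene on the same strand. Among the 68 members with less than 10% shared in this way, the lowest was at 3.74 FPKM. Level also went with gene length among the tested members (Spearman -0.593, beside -0.0343 over all genes tested), and the part of length in the spread was not tested. The median was 22.9 FPKM for the 49 large subunit genes and 12.9 FPKM for the 29 small subunit genes. Only 7 genes reached 50 FPKM and 9 were under 5 FPKM. Replicates were close, with a median coefficient of variation of 5.23% over the tested members and 5.65% over all genes tested.

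The 5 highest levels belonged to MRPL14, MRPL51, MRPS34, MRPL41 and MRPS10. MRPL14, a conserved protein of the face that meets the small subunit, was at 130, 112 and 116 FPKM in the control libraries and at 96.8, 96.2 and 95.5 FPKM in the irradiated ones. MRPL51, a mitochondrial addition to the large subunit, was at 103, 89.9 and 92.3 FPKM against 81.5, 83.1 and 83.3 FPKM. MRPS34, an addition to the small subunit, was at 94.2, 81.5 and 88.5 FPKM against 74.9, 71.2 and 69.9 FPKM. In each of these 3 genes every irradiated library lay below every control library. MRPS10, a conserved protein of the small subunit head, showed the same with 67.5, 63.0 and 62.3 FPKM against 55.6, 59.3 and 57.2 FPKM. All 5 were called lower, with MRPL41 described among the largest falls, and the call of MRPS34 was lost with TPM alone (adjusted p = 0.0533, limma).

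The 5 lowest levels belonged to MRPS24, MRPL46, MRPL38, MRPL53 and MRPS17, and each of these genes shares exon bases with another gene on the same strand. MRPS24 was at 0.359, 0.299 and 0.424 FPKM in the control libraries and at 0.166, 0.252 and 0.141 FPKM after irradiation, and its lowest library held 8 reads. MRPL46 was at 0.911, 0.920 and 1.03 FPKM against 0.718, 0.835 and 0.847 FPKM. These 2 genes were under the mean of 1 FPKM and were not tested, although every irradiated library lay below every control library in both. MRPL38 was at 1.32, 1.05 and 0.920 FPKM against 1.08, 0.957 and 0.883 FPKM, and MRPS17 at 2.87, 2.83 and 2.29 FPKM against 2.35, 2.18 and 1.78 FPKM. The groups overlapped in both, and neither was called, with adjusted p of 0.509 and 0.0898 (limma). MRPS17 was called lower in 3 of the 19 settings that tested it, with protein-coding genes alone, the replicate block or control library 3 left out (adjusted p = 0.0378, 0.0369 and 0.0474, in a range up to 0.274).

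In GENCODE 29, 10 members share at least 10% of their exon bases with a same-strand gene, and the 5 lowest are all among them. Their median control level was 3.49 FPKM, against 22.4 FPKM for the other 68 members, of which the lowest was at 3.74 FPKM. MRPL12, with 68.2% of its exon bases shared with a gene listed at 0 in every library, was at 47.5 FPKM. The genes that overlap MRPS24, MRPL46, MRPL38 and MRPS17 most were also at or near 0 in the control libraries (0, 0.0047, 0.015 and 0.018 FPKM). The gene that overlaps MRPL53 was at 1.89 FPKM. How reads in shared exons were counted is not given in the sources used here, so the levels of these 10 genes are uncertain.

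**Figure D1:**
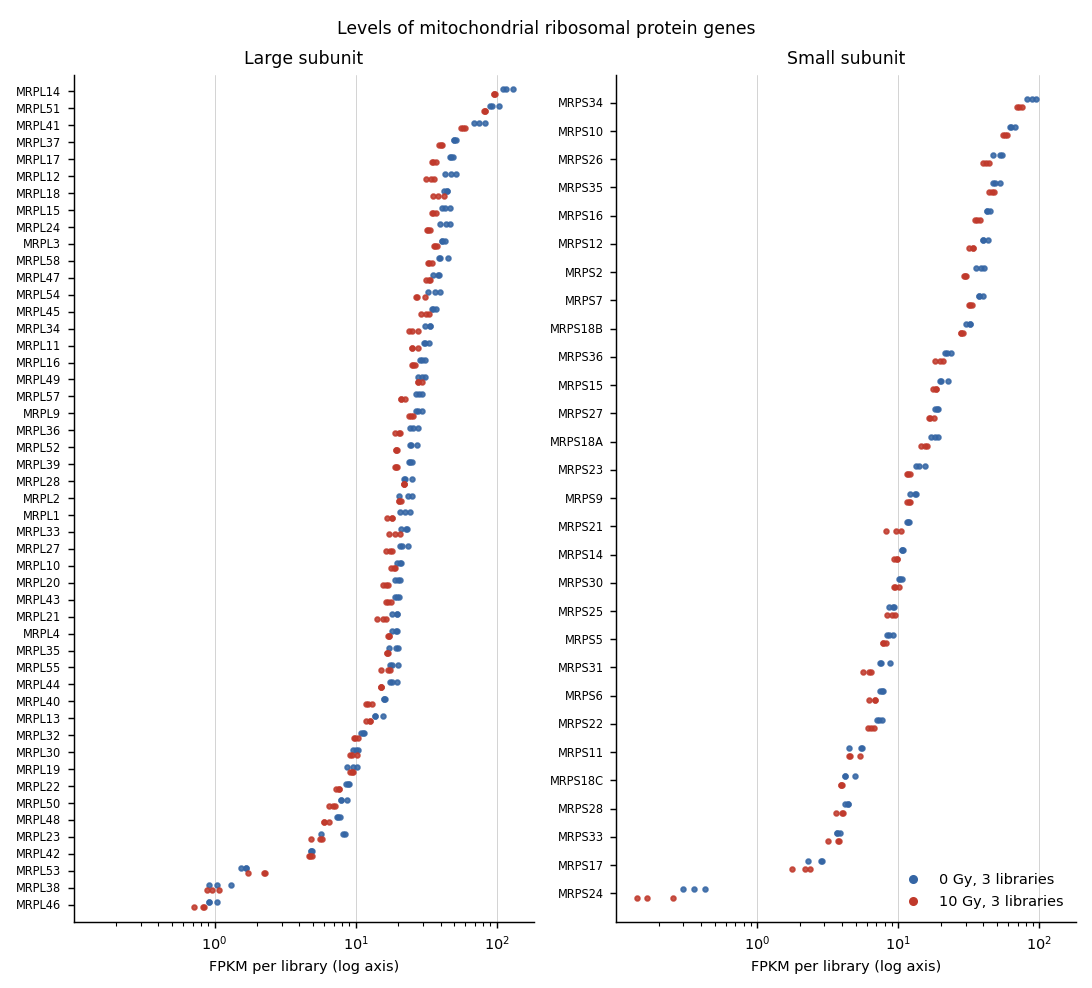
Levels of the 49 large subunit (left) and 29 small subunit genes (right), with FPKM per library on a log axis; blue points are the 3 libraries at 0 Gy and red points the 3 at 10 Gy. Genes are ordered by their control mean, from MRPL14 at 119 FPKM to MRPS24 at 0.361 FPKM, and the red points lie to the left of the blue ones for most genes.

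After 10 Gy, most of these genes were lower by a small amount. Of the 76 tested members, 55 were called lower and 0 higher, beside 23.7% of all tested genes called lower and 11.9% called higher. At an unadjusted p under 0.05 the limma fit gave 61 lower and 1 higher, and the count over all genes at this cut is not given here. With voom on recovered reads 57 members were called lower and 0 higher, beside 3343 lower and 1818 higher of all 12128 genes tested. The median change was -0.20 on the log2 scale, beside -0.04 over all genes tested, and 75 of 76 estimates were below 0. Called falls ranged from 8.87% to 28.8% of the control mean. In 59 of the 76 genes all irradiated libraries lay below all control libraries, where 32.8% of all genes tested did so. On the log2(FPKM + 1) scale an estimate of at least a 1.3-fold fall was reached by 4 called members, or 5.26%, beside 2.95% of all genes.

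The size of this count depended on how libraries were scaled. With TPM (each library set to the same total per length) 26 members were called lower and 1 higher, with upper quartile scaling 32 and 1, and with the deposited scaling factor removed 35 and 1. Under the same settings 8.83%, 11.9% and 13.6% of all genes tested were called lower, and 25.8%, 21.1% and 18.9% higher. Of the calls over all genes, 66.6% were lower as deposited and 25.5% with TPM, and TPM placed the median of all genes at 0.07 instead of -0.04. Relative to the median of all genes, the members' median stood at -0.16 as deposited and at -0.14 with TPM. The direction of single members was less stable, with 64 of 76 estimates below 0 with TPM. In 7 settings of library scaling, 26 members were called lower each time, 21 of them large subunit genes. Voom, 1 of the 7, kept the depths of the deposited values and is no separate scaling. The 26 are the members called with TPM, and they were also called under every other setting tried. The share of all genes called lower in every setting is not given here, and with TPM alone it was 8.83%. Leaving out irradiated library 1 reduced the count from 55 to 35 while all genes called lower went from 23.7% to 15.1%, and leaving out irradiated library 2 or 3 gave 41 and 46 members beside 14.9% and 18.0% of all genes. Without control library 2 or 3 the counts were 53 and 50 members beside 21.7% and 20.3% of all genes. Control library 1 held the highest of the 3 control values in 61 of the 78 genes, and without it 45 members and 21.4% of all genes were called lower.

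**Figure D2:**
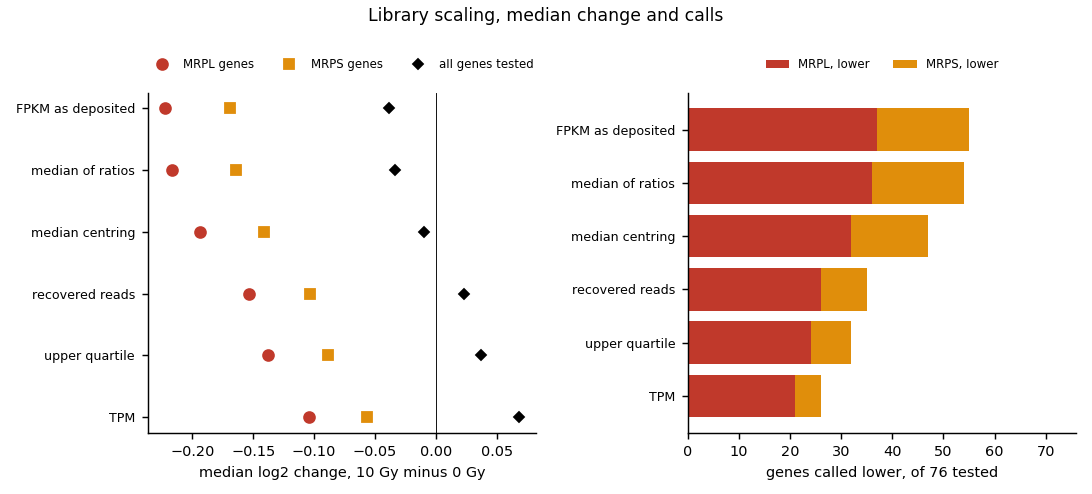
Effect of library scaling. Left, median log2 change (10 Gy minus 0 Gy) of the large subunit genes, the small subunit genes and all 12128 genes tested; right, number of large and small subunit genes called lower of 76 tested. Both subunits stay to the left of all genes in each row, while the number called falls from 55 as deposited to 26 with TPM.

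Large subunit genes were lower by more than small subunit genes, by a narrow margin. Of 48 tested MRPL genes 37 were called lower, and of 28 tested MRPS genes 18 were, with 0 called higher in either at this scaling. The median changes were -0.22 and -0.17, while single genes ran from -0.48 to 0.22 and from -0.35 to -0.01. Among genes of 2000 to under 4000 bases the order was reversed, with medians of -0.20 and -0.24. The difference of the medians over all lengths was -0.05. This difference had an SD of 0.013 between libraries of the same dose, which does not measure the spread between genes. It ran from -0.07 to -0.05 when 1 library was left out, while the eBayes settings, the replicate block and protein-coding genes alone cannot move it and library scaling shifts both subunits nearly alike. The summed level of the large subunit genes was 1459, 1336 and 1349 FPKM in the control libraries and 1136, 1135 and 1161 FPKM after irradiation. The summed level of the small subunit genes was 676, 626 and 639 FPKM against 557, 552 and 554 FPKM. Irradiated libraries were below control libraries in both sums, with means 0.828 and 0.857 times the control mean. The ratio of the sums within a library, which no library scaling can change, was 2.16, 2.13 and 2.11 at 0 Gy and 2.04, 2.06 and 2.095 at 10 Gy, so the irradiated libraries all lay below the control ones. The ratio of the medians was 1.86, 1.87 and 1.70 against 1.63, 1.66 and 1.70, so control library 3 and irradiated library 3 were nearly equal. No test was made of these summed values.

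Some genes sit under the name of the other subunit. The product of MRPS18A is now placed in the large subunit, as one of a set of proteins related to the bacterial small subunit protein S18. It fell by 15.4%, from 18.1, 19.1 and 17.2 FPKM to 14.5, 15.5 and 16.0 FPKM (log2 change -0.23 ± 0.05 SE, adjusted p = 0.0134, limma). Its relative MRPS18B was also called, from 32.4, 32.3 and 30.1 FPKM to 27.7, 28.6 and 27.8 FPKM (-0.17 ± 0.04 SE, adjusted p = 0.0137). MRPS18C had values of 4.96, 4.20 and 4.17 FPKM against 4.01, 3.95 and 3.93 FPKM and was not called (adjusted p = 0.146). In these 3 related genes the irradiated libraries were all below the control libraries. The call of MRPS18A was lost with TPM and upper quartile scaling (adjusted p = 0.122 and 0.0573, where its other alternatives went down to 0.00385). That of MRPS18B was lost with these, with the deposited factor removed, and without irradiated library 1 (adjusted p = 0.0561 to 0.400).

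MRPS30, whose product is likewise now placed in the large subunit, had 10.6, 10.1 and 10.3 FPKM in the control and 9.45, 10.2 and 9.32 FPKM in the irradiated libraries. Its groups overlapped, it was not called (adjusted p = 0.158, limma), and its estimate was -0.09 as deposited and 0.03 with TPM. The product of MRPS36 is now described as a part of the 2-oxoglutarate dehydrogenase complex and not of the ribosome. It fell by 12.4%, from 23.6, 21.5 and 22.1 FPKM to 19.7, 18.3 and 20.9 FPKM (adjusted p = 0.0369), and lost the call without control library 1 or 3 or irradiated library 1 or 2. With MRPS18A and MRPS30 counted as large subunit genes and MRPS36 left out, 38 large and 16 small subunit genes were called lower.

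The largest called falls were those of MRPL12, MRPL17, MRPL24, MRPL41 and MRPL57, all of the large subunit. MRPL12 (ENSG00000262814, GRCh38 chromosome 17, 81703357 to 81707526) encodes the protein of the flexible stalk that contacts translation factors. It fell by 28.8%, from 51.6, 43.3 and 47.6 FPKM to 34.0, 31.4 and 36.1 FPKM (-0.48 ± 0.07 SE, adjusted p = 0.00331, limma). The control libraries spread more widely for this gene (47.5 ± 4.15 FPKM SD, n = 3) than the irradiated ones (33.8 ± 2.35 FPKM SD, n = 3), and the groups did not overlap. Its estimate ranged from -0.54 to -0.35 over the settings, and it was called lower in all 20.

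MRPL17 (chromosome 11, 6680782 to 6683401) and MRPL24 (chromosome 1, 156737303 to 156741590) encode conserved proteins near the exit of the tunnel through which the new peptide leaves. MRPL17 fell by 25.2%, from 48.7, 46.8 and 47.6 FPKM to 35.4, 34.6 and 37.0 FPKM (-0.41 ± 0.04 SE, adjusted p = 0.000618, limma). MRPL24 fell by 24.8%, from 47.0, 39.8 and 43.7 FPKM to 33.7, 32.1 and 32.4 FPKM (-0.40 ± 0.06 SE, adjusted p = 0.00291). The libraries of MRPL17 were tight at both doses, and those of MRPL24 were spread at 0 Gy and tight at 10 Gy. MRPL41 (chromosome 9, 137551199 to 137552555) and MRPL57 (chromosome 13, 21176645 to 21179084) encode mitochondrial additions. MRPL41 fell by 23.6%, from 82.6, 69.5 and 74.5 FPKM to 57.8, 55.8 and 59.4 FPKM (adjusted p = 0.00417). MRPL57 fell by 23.4%, from 29.6, 26.7 and 27.9 FPKM to 21.08, 21.001 and 22.4 FPKM (adjusted p = 0.00171). No groups overlapped, and these 4 genes were called lower in each of the 20 settings.

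MRPL23 had an estimate of the same size, -0.38 ± 0.13 SE, and was not called (adjusted p = 0.0633, limma). It was at 8.45, 5.66 and 8.18 FPKM in the control libraries and at 4.86, 5.78 and 5.64 FPKM after irradiation, so control library 2 lay within the irradiated group. This gene and the 4 that follow from the small subunit were chosen for mention after their values were seen. The largest called falls among small subunit genes were those of MRPS2, MRPS31, MRPS12 and MRPS21, which fell by 22.2%, 22.9%, 19.1% and 19.6%.

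**Figure D3:**
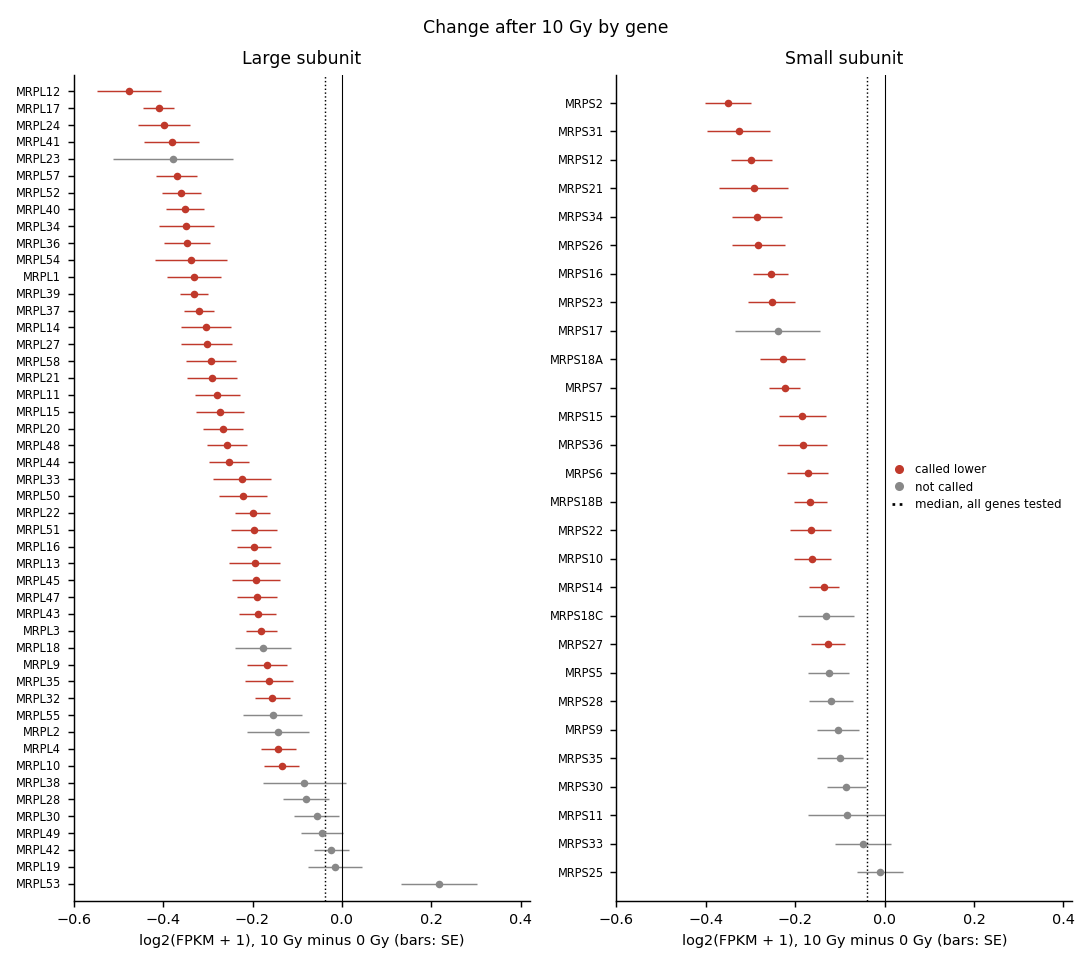
Change of each of the 48 large subunit (left) and 28 small subunit genes tested (right), as the difference of log2(FPKM + 1), 10 Gy minus 0 Gy, with bars of 1 SE from the limma fit; red genes were called lower and grey ones were not called. The dotted line is the median of all genes tested, -0.04, and 75 of the 76 points lie left of 0, with MRPL53 at 0.22.

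Grouped by place in the particle, the stalk, the central protuberance and the tunnel exit of the large subunit had medians below that of all members, while the small subunit head had a median above it. Of the 5 stalk genes 4 were called lower (median -0.28), of the 5 tested genes of the central protuberance 3 (median -0.26), of the 6 tunnel exit genes 5 (median -0.29) and of the 7 genes of the small subunit head 4 (median -0.14). Beside MRPL12, the stalk base protein MRPL11 fell by 18.1%, from 33.3, 31.1 and 30.5 FPKM to 25.3, 24.9 and 27.5 FPKM (adjusted p = 0.00597, limma). MRPL10, which joins the stalk to the ribosome, fell by 9.33%, from 21.02, 20.5 and 19.7 FPKM to 19.0, 18.7 and 17.8 FPKM (adjusted p = 0.0340). The groups did not overlap in either gene. The call of MRPL10 was lost when any library other than control library 3 was left out (adjusted p = 0.0616 to 0.109), while that of MRPL11 was kept in all 20 settings.

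MRPL53 was the exception in the stalk and among all tested members, with values above those of the control cells. It was at 1.68, 1.55 and 1.68 FPKM in the control libraries and at 1.72, 2.24 and 2.27 FPKM in the irradiated libraries, on 32 to 69 reads a library. The irradiated libraries all lay above the control ones, irradiated library 1 only just. The estimate was 0.22 ± 0.09 SE and was not called (adjusted p = 0.0846, limma). It was called higher with TPM, upper quartile scaling, the deposited factor removed, protein-coding genes alone, or without irradiated library 1 (adjusted p = 0.0278 to 0.0493), and over all settings the adjusted p ran up to 0.266. The same-strand gene CCDC142, which shares 45.2% of its exon bases, was at 1.89 FPKM at 0 Gy and 2.19 FPKM at 10 Gy, and its part in the value was not tested.

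MRPL45, a tunnel exit protein that ties the ribosome to the inner membrane, fell by 12.7%, from 35.5, 37.4 and 34.7 FPKM to 33.4, 29.01 and 31.5 FPKM (adjusted p = 0.0305, limma). Its call was lost without control library 1 or 2 or irradiated library 2 or 3 (adjusted p = 0.0528 to 0.0830), as it was in the blocked fit by replicate number (adjusted p = 0.0617). MRPL44, which has a ribonuclease III fold, fell by 17.0%, from 19.6, 17.4 and 18.1 FPKM to a tight 15.2, 15.2 and 15.2 FPKM (adjusted p = 0.00540). MRPL58, a peptidyl-tRNA hydrolase built into the large subunit, fell by 19.0%, from 45.0, 39.9 and 39.0 FPKM to 32.6, 34.6 and 33.2 FPKM (adjusted p = 0.00750). These last 2 genes were called lower in all 20 settings.

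In the small subunit, MRPS12, a conserved protein of the decoding centre, fell by 19.1%, from 43.4, 40.1 and 39.9 FPKM to 34.1, 31.7 and 34.0 FPKM (adjusted p = 0.00341, limma). MRPS7, a conserved protein of the head, fell by 14.8%, from 39.6, 37.5 and 37.3 FPKM to 33.3, 32.2 and 32.0 FPKM (adjusted p = 0.00374). Both were without overlap, and the call of MRPS7 was lost with TPM alone (adjusted p = 0.0600, in a range from 0.000338 over the settings). MRPS22, a mitochondrial addition, fell by 12.3%, from 7.27, 7.06 and 7.63 FPKM to 6.15, 6.38 and 6.72 FPKM (adjusted p = 0.0289). Its call was lost without control library 1 or 3 or irradiated library 1 or 2 (adjusted p = 0.0509 to 0.0999). The calls of MRPL10, MRPL45, MRPS22 and MRPS36 were also lost with no filter on low values, TPM, upper quartile scaling, the deposited factor removed and the library medians set equal (adjusted p up to 0.841). Counting every setting, these 4 genes were called lower in 9, 10, 11 and 10 of 20. MRPS28 had values of 4.18, 4.37 and 4.396 FPKM against 3.99, 3.65 and 4.04 FPKM and was not called (adjusted p = 0.0997). The calls of MRPL51 and MRPS10, among the highest genes, were lost in 7 of the alternatives each, including without irradiated library 1 or 3, and for MRPL51 also without irradiated library 2 (adjusted p = 0.0603 to 0.0855 for these). With the replicate number as a block MRPS10 was not called (adjusted p = 0.0559).

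**Figure D4:**
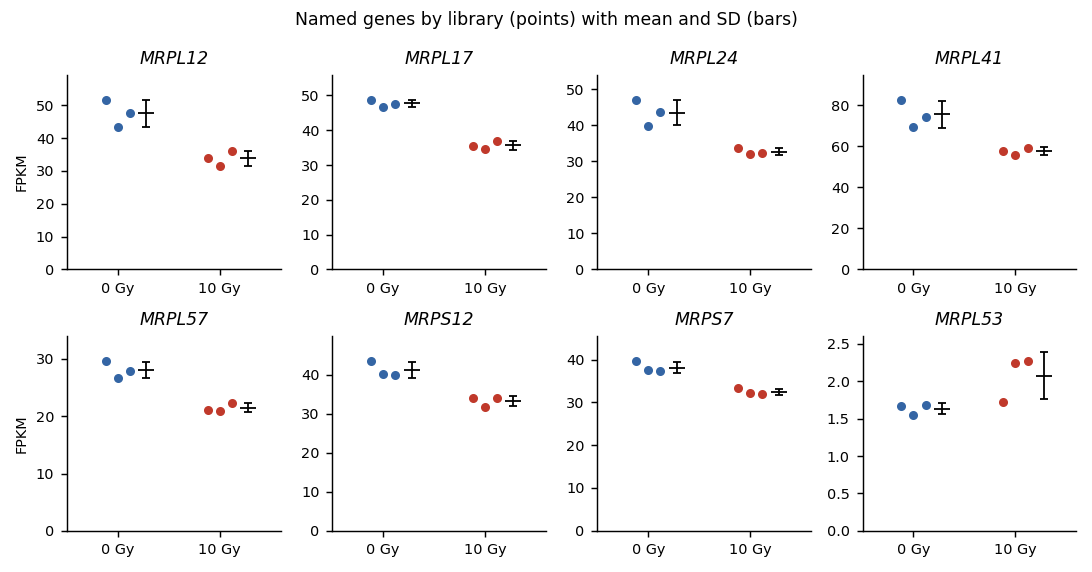
FPKM in each library for 8 genes: the 5 with the largest called falls, MRPS12 and MRPS7 of the small subunit, and MRPL53. Blue points are libraries at 0 Gy, red points libraries at 10 Gy, and the bars show the mean and SD of 3 libraries; the groups are apart in all 8 genes, with MRPL53 the only one that is higher after irradiation.

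Members of bacterial type and mitochondrial additions were called lower in similar shares. Of 46 tested genes classed as relatives of bacterial ribosomal proteins, mainly by gene number, 34 were called lower (median -0.20). Of the 30 classed as additions 21 were (median -0.21). Gene number is only a rough guide to origin, so single genes can sit in the wrong class. Short members had lower estimates than long ones. Under 2000 bases of exon 24 of 30 members were called lower (median -0.26), from 2000 to under 4000 bases 23 of 30 (median -0.22), and from 4000 bases 8 of 16 (median -0.13). Over all genes tested in these classes 22.3%, 32.03% and 20.5% were called lower, with medians of -0.07, -0.09 and -0.02, so the lowest class there was the middle one. Across the 76 members the change and the gene length had a Spearman correlation of 0.48, and the change and the control level one of -0.48, where all 12128 genes gave 0.179 and -0.378. Length and level were themselves related among the members (Spearman -0.593), the members share the same 6 libraries, and genes are not independent replicates. Within the length classes the large subunit was lower than the small one under 2000 bases (-0.29 and -0.18), higher from 2000 to under 4000 bases (-0.20 and -0.24) and lower from 4000 bases (-0.17 and -0.13, with 6 and 10 genes).

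The promoters of the members were searched for 4 short motifs of factors known to act on nuclear genes of mitochondrial proteins. RefSeq promoters (GRCh38.p14, from 250 bases before to 50 bases after the gene start) were found for 69 of the 78 members, and both strands were searched. The ETS family motif CCGGAAG, bound among others by GABP, was found in 29 of the 69 promoters, or 42.03%, beside 21.2% of the promoters of tested protein-coding genes and 10.7% of all 27305 promoters. The YY1 motif AANATGGCG was found in 18, or 26.1%, beside 7.72% and 3.37%. The NRF1 motif (GCGC, any 2 bases, GCGC) was found in 9, or 13.0%, beside 17.2% and 8.78%, and the E-box CACGTG, bound among others by MYC, in 6, or 8.70%, beside 10.4% and 7.44%. Of the tested members with an ETS match 23 of 29 were called lower (median -0.23), and of those without one 26 of 38 (median -0.19). With a YY1 match 12 of 16 were called lower (median -0.17) and without one 37 of 51 (median -0.22). With an NRF1 match 5 of 9 were called lower (median -0.19) and without one 44 of 58 (median -0.21). With an E-box 4 of 6 were called lower (median -0.20) and without one 45 of 61 (median -0.22). No overlap between motifs was removed, and a match is only a run of letters.

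The matches nearest the gene start are shown for the genes with the largest falls and the highest levels, since these carry the extremes of the comparison. Each window is on the gene's own strand, 10 bases either side of the match, with the match in capitals and read on either strand. Only the match nearest the start is in capitals, and the MRPS34 window begins with the ETS letters again, in lower case. MRPL12, MRPL24 and MRPL41 held no match to the NRF1, ETS or YY1 letters in the window searched.
MRPL17, NRF1, chr11:6683402-6683431, minus strand: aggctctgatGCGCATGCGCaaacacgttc
MRPL57, NRF1, chr13:21176574-21176603, plus strand: cctcggctctGCGCAGGCGCagtcctctct
MRPL14, NRF1, chr6:44127412-44127441, minus strand: tgggcctggcGCGCAGGCGCtaggaagagg
MRPL51, ETS, chr12:6493350-6493376, minus strand: ggcaggcggaCCGGAAGcactgaggcg
MRPS34, ETS, chr16:1773137-1773163, minus strand: cttccggtgaCTTCCGGccggaccgct
MRPS10, ETS, chr6:42217867-42217893, minus strand: cgctgtaaccCCGGAAGcaatcctgag
MRPS10, YY1, chr6:42217834-42217862, minus strand: cgggaccggcAAGATGGCGgcgcggacag
The NRF1 match began 81 bases before the RefSeq start in MRPL17, 74 in MRPL57 and 123 in MRPL14. The ETS match began 104 bases before it in MRPL51, 19 in MRPS34 and 22 in MRPS10, and the YY1 match of MRPS10 began at base 10 after it. The gene spans used for the levels can start elsewhere than in RefSeq. Those of MRPL14, MRPL51 and MRPS34, on the minus strand, start at 44127457, 6493841 and 1773155, so the NRF1 and ETS matches printed for these genes lie inside the spans.

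The factors named for these motifs were themselves measured. MYC fell by 29.4%, from 66.2, 63.1 and 64.5 FPKM to 46.6, 44.2 and 46.0 FPKM (-0.49 ± 0.03 SE, adjusted p = 0.000439, limma). GABPA, the DNA-binding part of GABP, fell by 24.2%, from 5.78, 6.20 and 5.52 FPKM to 4.38, 4.25 and 4.63 FPKM (adjusted p = 0.00372), and its partner GABPB1 fell by 27.99%, from 5.36, 5.50 and 5.39 FPKM to 3.90, 4.06 and 3.74 FPKM (adjusted p = 0.00117). All 3 were without overlap between doses. YY1 had 19.3, 19.0 and 20.5 FPKM against 18.4, 18.2 and 18.1 FPKM, without overlap, and was not called (adjusted p = 0.0673). NRF1 had 6.32, 6.75 and 6.42 FPKM against 6.33, 6.68 and 6.91 FPKM and was not called (adjusted p = 0.671). Of the coactivators and the transcription machinery of mitochondrial DNA, PPRC1 fell by 9.89%, TFAM by 10.5% and the polymerase POLRMT by 11.1% (adjusted p = 0.0251, 0.0139 and 0.0477). The calls of MYC and GABPA were kept in all 20 settings and that of GABPB1 in the 19 that tested it. That of TFAM was lost in 4 settings (upper quartile scaling, TPM, the deposited factor removed and without irradiated library 1, adjusted p up to 0.604). That of PPRC1 was lost in 11 settings and that of POLRMT in 13 (adjusted p up to 0.757 and 0.547), among them these 3 scalings, median centring, no filter, the replicate block and each irradiated library left out. Control library 3 left out also ended both calls, as did control library 2 for PPRC1 and control library 1 for POLRMT. Of the 14 tested genes of this list 9 were called lower and 0 higher, and with TPM or upper quartile scaling 4 were.

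Among the products of mitochondrial DNA, the messages that mitoribosomes translate, 1 of 13 protein genes was called. MT-CO2, a subunit of cytochrome c oxidase, fell by 28.1%, from 3039, 3557 and 3346 FPKM to 2160, 2169 and 2821 FPKM (adjusted p = 0.0197, limma). Its call was lost without control library 2 or 3 or irradiated library 1 or 2, when 0 of the 13 were called. The median change of the 13 was -0.17, close to that of the members, but their control libraries varied by a median of 12.3% and only 2 of the 13 had groups that did not overlap. The rest of the mitoribosome and the factors that build and serve it were also lower in most called cases. Of the 5 subunits with other names 3 were called lower, among them GADD45GIP1 and CHCHD1, which fell by 18.8% and 17.2%, and whose calls were lost when any 1 of the irradiated libraries was left out, with no filter, and in the 3 scalings that end the call of TFAM, and for CHCHD1 also without control library 1 or 3. Of 29 tested assembly factors 16 were lower and 1 higher: the RNA helicase DDX28 fell by 26.9% and the methyltransferase TFB1M by 23.5%, while the inner membrane protease subunit SPG7 rose by 28.5%. DDX28 was called in every setting. TFB1M lost its call in 9 of the 19 settings that tested it, which were no filter, upper quartile scaling, TPM, the deposited factor removed, the replicate block, and control library 2 or 3 or irradiated library 1 or 3 left out (adjusted p up to 0.130). SPG7 lost its call with no filter and without irradiated library 1. Of 16 translation factors 7 were lower and 1 higher: TACO1, the activator of MT-CO1 translation, fell by 22.0% and the initiation factor MTIF3 fell by 22.8%, while the release factor MTRF1 rose by 36.2%. The calls of TACO1 and MTIF3 were kept in every setting, while that of MTRF1 was lost with no filter and when any library other than irradiated library 1 was left out.

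Other gene families of ribosomes and mitochondria were also called lower in large part in the same fit. Of 77 cytosolic ribosomal protein genes 53 were called lower and 0 higher (median -0.18), and of 79 tested nuclear genes of the respiratory chain 37 were lower and 0 higher (median -0.16). Their summed levels after irradiation were 0.875 and 0.884 times those at 0 Gy, beside 0.828 for the large and 0.857 for the small mitoribosomal subunit. Irradiated libraries lay all below control libraries in 69 of the 77 cytosolic and 51 of the 79 respiratory chain genes. For the members this held in 59 of 76. No test was made between the families, which share the same 6 libraries. With the minimum raised to 5 FPKM, 37.6% of all were called lower and 57 of 68 members.

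**Figure D5:**
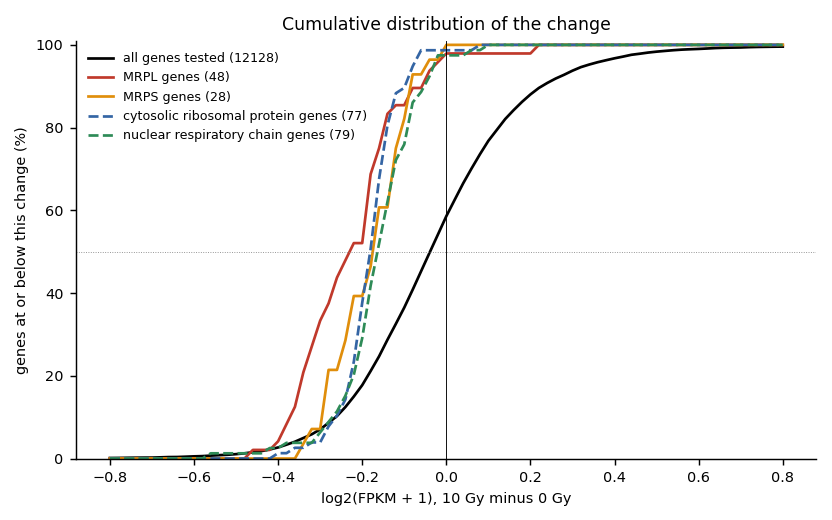
Cumulative share of genes (percent, vertical axis) at or below each change in log2(FPKM + 1), 10 Gy minus 0 Gy (horizontal axis), for the large and small subunit genes, 2 related families and all 12128 genes tested, from the values as deposited. At 50% the large subunit curve lies furthest to the left, with a median of -0.22, and the curve of all genes crosses 50% at -0.04.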

How the data were processed

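The 6 libraries of MDA-MB-231 cells were grouped by dose as in the labels. The authors deposited FPKM values, and the submitters' processing notes name HISAT2 and GRCh38. The counting program and its treatment of strand and of reads shared between genes are not given in the sources used here. Gene starts and ends equalled GENCODE 29 for 58724 of 58735 genes. Each FPKM multiplied by gene length and implied depth gave whole reads within 0.01 for 100% of values above 0, and these recovered reads gave the depths stated. The members and lists were chosen with earlier results of these data known. Expression was compared with limma 3.58.1 in R 4.3.3 on log2(FPKM + 1), a scale that understates the change of low genes, with an eBayes trend and a minimum mean of 1 FPKM. The procedure was tested on simulated data. Genes named are the 5 highest, 5 lowest and 5 largest called falls and rises, 15 members chosen by function, and the 2 largest called changes of each other list and direction with 6 regulators. Alternatives covered the pseudocount, filter, scaling, eBayes settings, subunit assignment, replicate block and each library left out. Tables and figures came from Python 3.11.15 with matplotlib 3.10.9. Promoter motifs were matched as exact letters on both strands.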

Additional observations from a re-analysis of the deposited data

How the results depend on the processing

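The scaling of the libraries, the filter on low values and single libraries changed counts, and no cause was tested. Counts of members called lower fell from 55 to 32 with upper quartile scaling, 26 with TPM and 35 with the deposited factor removed, a setting chosen after seeing the data. For the large subunit they were 24 and 21 with the first 2 of these. For the small subunit they were 8, 5 and 9. With no filter, which tested more genes, 37 members were called lower, 26 of the large and 11 of the small subunit. In that setting 1815 of all genes were called lower, beside 2874 in the main fit. One gene, MRPL53, was called higher (1 member, 1 large subunit gene) in these 3 scalings and with protein-coding genes alone. The median change of the large subunit was -0.14, -0.10 and -0.15 in the 3 scalings, that of the small subunit -0.088, -0.057 and -0.10, and their difference was -0.069 with a mean of at least 5 FPKM. MRPS30 turned to 0.031 with TPM.

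In the other lists, mitochondrially encoded genes called lower numbered 0 with no filter, 2 with a mean of at least 5 FPKM, 5 with voom and 2 with protein-coding genes alone. Subunits with other names called lower numbered 0 with no filter and in the 3 scalings, and 1 was called higher with TPM. Assembly factors called lower numbered 9 with no filter, 4 with upper quartile, 2 with TPM and 5 with the factor removed, and higher 0 with no filter and at 5 FPKM, 2 with upper quartile and 4 with TPM. Translation factors called lower numbered 3 with no filter, 3 with upper quartile, 2 with TPM and 3 with the factor removed, and higher 0 with no filter and at 5 FPKM, 2 with upper quartile and 2 with TPM. Regulators called lower numbered 4 in each of the 3 scalings and 5 with median centring.

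Leaving out 1 library at a time gave 35 to 53 members lower and 0 to 1 higher, 26 to 35 large subunit genes lower and 0 to 1 higher, and 9 to 19 small subunit genes lower. The difference of medians ran from -0.071 to -0.049. Mitochondrially encoded genes lower ran from 0 to 3, other subunits from 0 to 3, assembly factors from 7 to 14 lower and 0 to 2 higher, translation factors from 3 to 7 lower and 0 to 1 higher, and regulators from 5 to 8.

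With each group's mean removed, libraries that share a replicate number correlated at -0.04, -0.03 and -0.10, which shows no sign of pairing. With 3 libraries in a group, what is left cancels out within the group and the correlations are tied together. They therefore cannot settle whether the numbers mark paired cultures. With the replicate number as a block, 48 members were called lower, 47 of them among the 55, and 5 regulators were, beside 2366 of all 12128 genes tested. No library correlated best with the library of its own number at the other dose.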

Other observations

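Many mitochondrial ribosomal protein genes start close to another gene on the opposite strand. Among the 76 tested members, 28 had a protein-coding gene starting within 1000 bases on the other strand, or 36.8%, beside 18.5% of the tested protein-coding genes. This count was added after seeing the data. Of the 20 neighbours that were tested themselves, 6 were called lower, 3 higher and 11 were not called, with a median change of 0.00, while neighbours of all tested protein-coding genes were called lower in 29.02% and higher in 9.59%. Next to the 16 called members with a tested neighbour, 3 neighbours were lower and 3 higher. NDUFS6, a respiratory complex I subunit that starts 34 bases from MRPL36, was at 57.5 FPKM at 0 Gy and 45.8 FPKM at 10 Gy (adjusted p = 0.00635, limma). MRPL36 fell by 22.2%, from 27.5, 25.4 and 24.3 FPKM to 20.2, 19.1 and 20.7 FPKM. NCAPD2, a condensin subunit that starts 485 bases from MRPL51 and shares 31.3% of its exon bases, was at 64.0 FPKM at 0 Gy and 81.0 FPKM at 10 Gy (adjusted p = 0.000781), where MRPL51 was called lower. These 2 neighbours were chosen after their values were seen, and whether reads were counted by strand is not given in the sources used here.

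Pseudogenes named after members numbered 75, for 34 of the 78 members. Of these, 53 were at 0 in every library and 1 reached a mean of 1 FPKM, the highest being at 2.38 FPKM. How reads that fit both a gene and its copy were counted is not given in the sources used here.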
